A study of Homo sapiens with 3 samples.

Results

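The 8 genes described here encode the core of the miRNA silencing complex: the Argonaute genes EIF2C1, EIF2C2, EIF2C3 and EIF2C4, now named AGO1 to AGO4, the GW182 genes TNRC6A, TNRC6B and TNRC6C, and the helicase gene MOV10. They were chosen by symbol from a fixed list of names, and all 8 were found among the 12040 genes of the table. Poly(A) RNA had been sequenced from HEK293 cells, an established human embryonic kidney line, in 1 library for each of 3 groups: RNAi against DICER1, RNAi against DROSHA, and a mock transfection. Every group was the T-REx Flp-In derivative of the line with a FLAG-tagged DICER1 transgene. The titles of all 3 libraries end in the same mark, 2.5d, whose meaning is not spelled out. The sources used here give neither the RNAi reagents nor the state of the transgene, on or off. Nothing says whether the libraries came from separate cultures. The study asked what loss of DICER1 does to transcript levels, with DROSHA loss and mock transfection as controls.

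An Argonaute protein holds a miRNA and pairs its seed, bases 2 to 8, with sites that lie mostly in the 3′ UTR of a messenger RNA. A GW182 protein docks on the Argonaute through its glycine-tryptophan repeats and brings in the deadenylases that shorten the poly(A) tail, after which the cap is removed and the message is degraded. DICER1 and DROSHA act upstream of this complex by cutting miRNA precursors, so the 8 genes encode the step that uses the product of both enzymes.

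What is reported for each gene is the authors' log2 fold change in 2 comparisons, called first and second in the order of the table, which names no column. Neither was assigned to a knockdown. Both have the same denominator library, and the authors added 1 to every level before taking the ratio, so that genes with low levels show smaller fold changes. The first minus the second fold change sets the numerator libraries against each other, and the shared library cancels in it. With 1 library per group there was no replicate error and no test, so every value describes these libraries and not the conditions. The depth is unknown, because the fold changes carry no counts. In bulk RNA, fewer cells with a transcript and less of it per cell cannot be told apart. For the targets of the knockdowns, the authors' deposited table gave DICER1 a first value of -1.32 and a second of 0.58. It gave DROSHA -0.11 and -1.65 (authors' deposited table). Of 9 genes taken as marks of HEK293 cells, 7 were listed, including VIM, KRT8 and KRT18, while NEFM and PAX2 were not. None of 6 marker genes of leukocytes, hepatocytes, fibroblasts, endothelium, erythroid cells and muscle was listed. The table holds only genes whose level in the denominator library was above 1, so all 8 genes had passed that floor.

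The 3′ UTRs of the 8 genes are shown first, because they are the part of a message that a miRNA reads. They were taken from GENCODE release 29 (GRCh38), with the transcript of longest 3′ UTR for each gene. Those of the Argonaute genes were long: 10921 bases in EIF2C1, 11888 in EIF2C2, 16755 in EIF2C3 and 4285 in EIF2C4. TNRC6B had 12567 bases, TNRC6C 3990, TNRC6A 2420 and MOV10 239, while the median over 11274 genes of the table with a matched 3′ UTR was 1450. Which 3′ UTR ends the cells used was not measured. Matches to the seeds of 9 miRNAs were searched on the sense strand, and the 6 miRNAs on which the counts of single genes turn are printed from RefSeq (GRCh38.p14), with the seed in capitals:
hsa-miR-17-5p: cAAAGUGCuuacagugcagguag
hsa-miR-130b-3p: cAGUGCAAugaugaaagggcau
hsa-miR-19b-3p: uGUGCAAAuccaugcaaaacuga
hsa-miR-16-5p: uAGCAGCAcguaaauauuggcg
hsa-miR-103a-3p: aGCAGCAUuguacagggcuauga
hsa-miR-30a-5p: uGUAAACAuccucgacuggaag

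The letters searched were the reverse complement of each seed, in DNA letters. They were GCACTTT for miR-17, found in 26.2% of all 3′ UTRs searched. For miR-130 they were TTGCACT, found in 17.5% of 3′ UTRs. For miR-16 they were TGCTGCT, found in 26.1% of 3′ UTRs. For miR-103 they were ATGCTGC, found in 14.6% of 3′ UTRs. For miR-30 they were TGTTTAC, found in 19.3% of 3′ UTRs. The search for let-7a used CTACCTC, found in 11.5% of 3′ UTRs. The search for miR-19b used TTTGCAC, found in 16.3% of 3′ UTRs. The search for miR-92a used GTGCAAT, found in 13.5% of 3′ UTRs. The search for miR-10a used ACAGGGT, found in 15.0% of 3′ UTRs. Matches of miR-16 and miR-103 can overlap by shifting 1 base, as can those of miR-19 and miR-130. Those of miR-17 can overlap matches of miR-130 and of miR-19 by larger shifts. The counts of different miRNAs are therefore not separate sites.

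**Figure D1:**
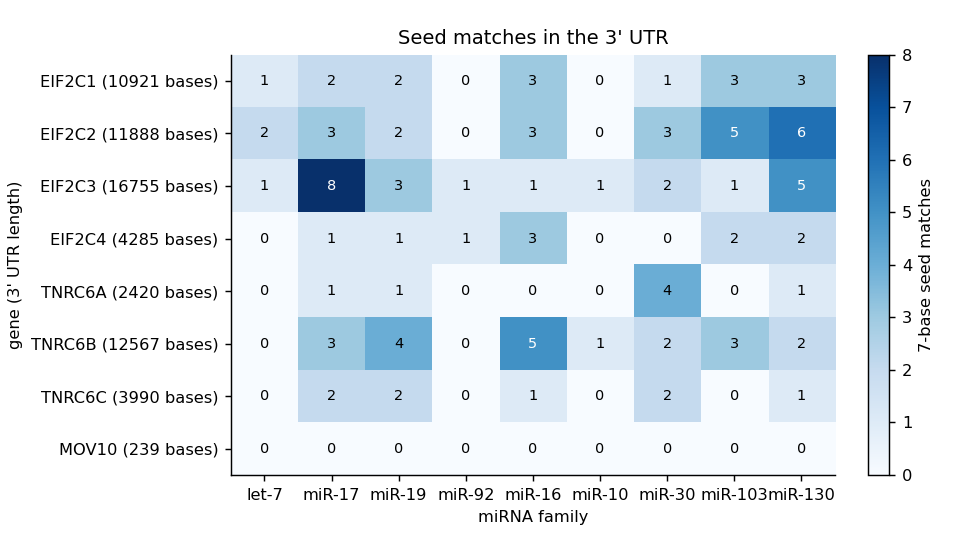
Number of 7-base seed matches (colour and printed number) for 9 miRNA families (columns) in the 3′ UTR of each gene (rows, with the 3′ UTR length in bases). EIF2C3 has 8 matches for miR-17, EIF2C2 has 6 for miR-130, TNRC6A has 4 for miR-30, and MOV10 has none.

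The matches were unevenly spread over the family. EIF2C2 held 24 matches, EIF2C3 23, TNRC6B 20, EIF2C1 15, EIF2C4 10, TNRC6C 8, TNRC6A 7 and MOV10 none. Per kilobase of 3′ UTR the order was another, with TNRC6A at 2.89, EIF2C4 2.33, EIF2C2 2.02 and TNRC6C 2.01. TNRC6B was at 1.59, and EIF2C1 and EIF2C3 were at 1.37 each. Since longer 3′ UTRs hold more matches, the counts for single miRNAs are set beside 3′ UTRs of 0.8 to 1.2 times the same length. EIF2C2 had 6 matches for miR-130 and 5 for miR-103, and of 111 other 3′ UTRs of similar length none had as many of the first and 1 (0.901%) as many of the second. EIF2C3 had 5 matches for miR-130, which none of 34 such 3′ UTRs reached. TNRC6B had 4 matches for miR-19, a number reached by 1 of 95 such 3′ UTRs (1.05%), and 5 for miR-16, reached by 3.16%. EIF2C1 had 3 matches for miR-103, reached by 3.82% of 157. With the miR-30 matches of TNRC6A that follow, these are all the counts that fewer than 5% of such 3′ UTRs reached, out of 9 miRNAs searched in each of the 8 genes. These counts describe letters in the annotation and show no binding.

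TNRC6A had 4 matches for miR-30 within 2420 bases, a number reached by 2 of 1677 other 3′ UTRs of similar length (0.119%). They are printed with their flanks, in capitals the seed match, since TNRC6A had the lowest value of the 8 genes in the second comparison. Whether the matches bear on that value was not tested. Positions are on the plus strand of GRCh38:
TNRC6A miR-30 match at chr16:24824251-24824279: cccagtgtcaaTGTTTACtcaagggtgtt
TNRC6A miR-30 match at chr16:24824542-24824570: ttgaaccttctTGTTTACagatttttttg
TNRC6A miR-30 match at chr16:24824582-24824610: agaaaaaaaaaTGTTTACtcttccatcat
TNRC6A miR-30 match at chr16:24825348-24825376: tggcttttaacTGTTTACaaatagaatgt

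EIF2C3 had 8 matches for miR-17 and was the highest of the 8 genes in the second comparison, which is why some of its matches are shown. As many were found in 2 of 34 other 3′ UTRs of similar length (5.88%). The first sequence shown also holds a match of miR-130 and of miR-19, both overlapping that of miR-17. Whether the matches bear on the value of EIF2C3 was not tested. The following sequences show 3 of the 8, with positions on the plus strand of GRCh38:
EIF2C3 miR-17 match at chr1:36058395-36058423: aggggagctttGCACTTTgtaactcatga
EIF2C3 miR-17 match at chr1:36060966-36060994: atcatagaaaaGCACTTTtgtgattctat
EIF2C3 miR-17 match at chr1:36070112-36070140: tttgccttcagGCACTTTtgctacatgtt

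None of the 8 genes reached a 2-fold difference in either comparison or between the numerator libraries. Over all genes 0.341% did so in the first comparison, 0.831% in the second and 1.66% in the difference, so a count of 0 among 8 genes is near the background. At 1.5-fold the count was 0 in the first comparison (background 2.17%), 0 in the second (5.07%) and 1 in the difference (9.13%), which was EIF2C1. At 1.3-fold, a threshold chosen after the values were seen, EIF2C4 alone passed in the first comparison (background 8.11%). There were 4 past it in the second (background 16.3%): EIF2C1, EIF2C2 and TNRC6A were lower and EIF2C3 higher. The difference had 4 past it (background 23.5%), with EIF2C1 and MOV10 higher and EIF2C3 and EIF2C4 lower. Barely past the threshold was EIF2C4 at -0.40 in the first comparison, and just short of it was TNRC6B at -0.33 in the difference.

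**Figure D2:**
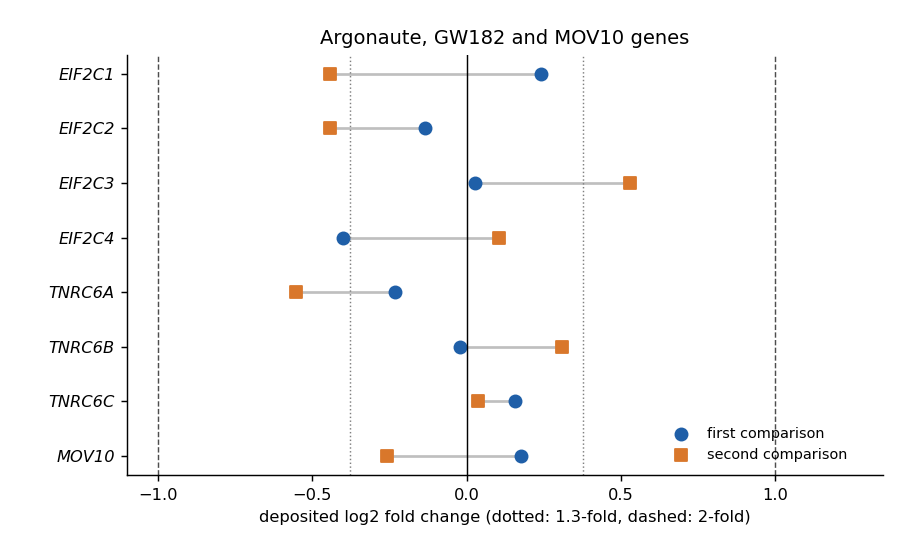
The authors' deposited log2 fold changes (x axis) of the 8 genes (y axis) in the first comparison (circles) and the second (squares), 1 value each. All values lie within the dashed 2-fold lines. EIF2C1, EIF2C2 and TNRC6A lie below the lower dotted 1.3-fold line in the second comparison, and EIF2C3 lies above the upper one. In the first comparison EIF2C4 alone lies below the lower dotted line.

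Among the Argonaute genes, EIF2C1 encodes AGO1, which binds miRNAs and acts mainly without cutting the target. The authors' deposited table put it at 0.24 for the first comparison, a ratio of 1.18, and at -0.44 for the second, a ratio of 0.735. It was the highest of the 8 genes in the first comparison, above 86.9% of all genes, and above 7.41% of them in the second. Its difference of 0.69 was the largest of the 8, and 5.70% of all genes lay at least as far from 0.

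EIF2C2 encodes AGO2, the Argonaute known for cutting fully paired targets. The authors' deposited table put it at -0.13 and -0.44, ratios of 0.912 and 0.736. EIF2C2 was thus below 0 in both comparisons, and in the second it lay within 0.01 of EIF2C1 on the log2 scale. Of all genes, 19.8% were lower than EIF2C2 by the first comparison and 7.50% by the second. The difference for EIF2C2 was 0.31.

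EIF2C3 encodes AGO3. The authors' deposited table gave it 0.03 in the first comparison, a ratio of 1.02, and 0.53 in the second, a ratio of 1.44. In the first comparison EIF2C3 was near the middle of all genes, with 49.3% lower, and in the second 98.1% were lower. The difference for EIF2C3 was -0.50.

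EIF2C4 encodes AGO4. Its first value was -0.40, a ratio of 0.758, and its second 0.10, a ratio of 1.07 (authors' deposited table). It was the lowest of the 8 genes in the first comparison, where 3.55% of all genes were lower. Its difference of -0.50 was close to that of EIF2C3, although EIF2C4 differed from the shared library mainly in the first comparison and EIF2C3 mainly in the second.

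The Argonaute genes thus did not share a direction, since 2 of the 4 were above 0 and 2 below in either comparison. EIF2C3 lay so close to 0 in the first comparison that re-centring on the median of all genes turned it to -0.0032, which left 1 of the 4 above 0 and 3 below. Their range spanned 0.64 on the log2 scale in the first comparison, from EIF2C4 to EIF2C1, a 1.56-fold spread. It spanned 0.97 in the second, from EIF2C1 to EIF2C3, a 1.96-fold spread. In the difference the span was 1.19, from EIF2C4 to EIF2C1. The 4 genes had medians of -0.05 and -0.17, beside medians of 0.03 and 0.01 over all genes.

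EIF2C4, EIF2C1 and EIF2C3 are neighbours on chromosome 1, all on the plus strand. In GENCODE release 29 (GRCh38) EIF2C4 spans chr1:35808172-35857890, EIF2C1 chr1:35869808-35930528 and EIF2C3 chr1:35930718-36072500. The cluster covers 264329 bases, and EIF2C1 ends 189 bases before EIF2C3 begins. These adjacent genes held both the highest and the lowest value of the 8 in the first comparison, and EIF2C1 and EIF2C3 lay on opposite sides of 0 in the second. EIF2C2 lies on another chromosome. Reads near the border of EIF2C1 and EIF2C3 could be given to either gene, and the sources used here do not say how the authors assigned such reads.

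**Figure D3:**
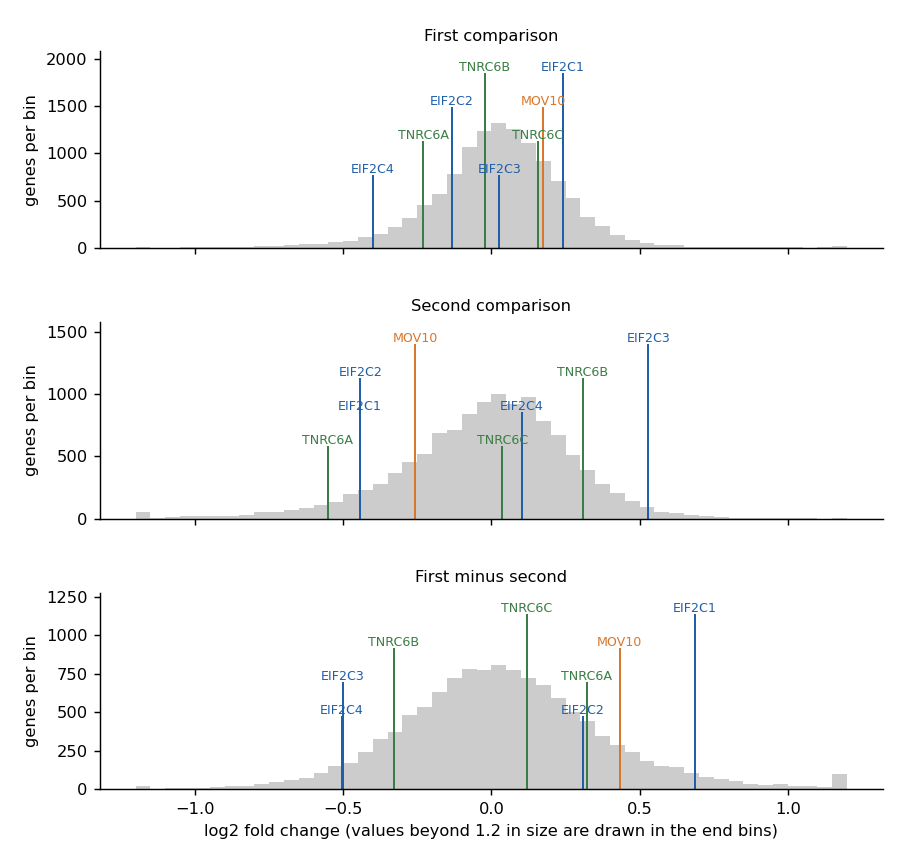
Histograms of the log2 fold changes of all 12040 genes (grey, genes per bin on the y axis) in the first comparison, the second and the first minus the second. Vertical lines mark Argonaute (blue), GW182 (green) and MOV10 (orange) genes, and line heights only separate the names. EIF2C3 lies in the upper tail and TNRC6A in the lower tail of the second comparison.

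The GW182 genes differed among themselves as well. TNRC6A, the founding GW182 protein, was put at -0.23 and -0.55 by the authors' deposited table, ratios of 0.852 and 0.682. It was the lowest of the 8 genes in the second comparison, where 4.41% of all genes were lower. TNRC6B, its paralog with the longest 3′ UTR of the GW182 genes, was at -0.02 and 0.31 (authors' deposited table), ratios of 0.985 and 1.24. TNRC6C was at 0.16 and 0.04 (authors' deposited table), and was the gene of the 8 whose values in the comparisons were closest to each other.

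In the second comparison the GW182 genes spanned 0.86 on the log2 scale, from TNRC6A to TNRC6B, and in the first 0.39, from TNRC6A to TNRC6C. The 3 genes had medians of -0.02 and 0.04. The difference was 0.32 for TNRC6A, -0.33 for TNRC6B and 0.12 for TNRC6C. On GRCh38 the genes are on separate chromosomes, TNRC6A at chr16:24610209-24827632, TNRC6B at chr22:40044817-40335808 and TNRC6C at chr17:77959240-78108835.

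MOV10, an RNA helicase that associates with Argonaute proteins and restricts retroelements, was put at 0.18 and -0.26 by the authors' deposited table, ratios of 1.13 and 0.837. Its difference was 0.43, the second highest of the 8 after EIF2C1. MOV10 lies at chr1:112673141-112700746 on GRCh38, outside the Argonaute cluster. In the annotation 5 of the 8 genes overlap a gene of the opposite strand in their exons (EIF2C1, EIF2C3, TNRC6A, TNRC6C and MOV10). EIF2C2 overlaps 1 gene model of its own strand, whose reads strand-specific counting could not separate. None of these overlapping genes was listed in the table. The sources used here do not state strand-specific counting, so reads of the antisense partners cannot be told apart either.

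The median over the 8 genes was 0.0028 in the first comparison, -0.11 in the second and 0.21 in the difference, beside 0.03, 0.01 and 0.02 over all genes. In both comparisons 4 of the 8 were above 0 and 4 below, and re-centring made this 3 and 5 in the first. The median of the first comparison has no firm sign, since it was -0.0276 after re-centring and -0.0215 without MOV10. Without MOV10 the median in the second comparison was 0.04. The medians thus hide the spread: in the second comparison the 8 values ran from -0.55 (TNRC6A) to 0.53 (EIF2C3).

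The genes of the whole table whose values lay nearest to EIF2C1, by Euclidean distance of the 2 log2 fold changes, were RXRA, at 0.24 and -0.45 (authors' deposited table), and KCTD5, at 0.25 and -0.44. Those nearest to EIF2C4 were MPHOSPH6, at -0.40 and 0.12 (authors' deposited table), and ZNF791, at -0.40 and 0.12. This likeness rests on 3 libraries.

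An earlier look at these fold changes had picked 7-mers whose carriers were lowest, and their matches in the 8 genes are given as a description. They support nothing, because they were picked from the same values. The pair picked in the first comparison was CAATCTA, together with its shifted form AATCTAA, and 16.1% of the searched 3′ UTRs held at least 1 of them. The pair picked in the second was GTGACTT, together with its shifted form TGACTTA, and 23.0% held at least 1 of them. All were searched on the sense strand, and where the forms overlap both are counted. Of the second pair EIF2C2 had 5 matches, EIF2C1 4 and TNRC6A 3, and these were the lowest of the 8 genes in that comparison. TNRC6B had 2 matches and stood at 0.31, while EIF2C3, EIF2C4, TNRC6C and MOV10 had none and stood between -0.26 and 0.53. Of 3′ UTRs of similar length to that of EIF2C3, 88.2% held at least 1 match, and EIF2C3 had none. The same share was 80.0% for TNRC6B, 77.7% for EIF2C1, 76.6% for EIF2C2 and 46.7% for EIF2C4. For TNRC6C it was 44.1%, for TNRC6A 29.5% and for MOV10 3.19%, so having no match was usual at the length of MOV10. The 3 matches in TNRC6A and 1 of the 4 in EIF2C1 are printed, in capitals the 7-mer, with positions on the plus strand of GRCh38:
TNRC6A, chr16:24824355-24824383: agttaggatgcTGACTTAggattattaat
TNRC6A, chr16:24824451-24824479: tggccacagctGTGACTTgcagcccacct
TNRC6A, chr16:24825691-24825719: aaaactcttctGTGACTTcatcttcccca
EIF2C1, chr1:35927778-35927806: catgaatcagaGTGACTTtcccaggctca

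For the first pair, EIF2C3, EIF2C4 and TNRC6B had 2 matches each, EIF2C1, EIF2C2 and TNRC6A 1 each, and TNRC6C and MOV10 none. EIF2C4, the lowest of the 8 in the first comparison, was thus level in matches with EIF2C3 at 0.03 and TNRC6B at -0.02. Of 3′ UTRs of similar length, 76.5% held at least 1 match for EIF2C3, 63.2% for TNRC6B, 62.2% for EIF2C2 and 59.9% for EIF2C1. The share was 33.4% for EIF2C4, 32.1% for TNRC6C, 19.6% for TNRC6A and 1.40% for MOV10. The matches of EIF2C4 are printed because it was the 1 gene past 1.3-fold in the first comparison, with positions on the plus strand of GRCh38:
EIF2C4, chr1:35854017-35854045: gaaaaaccaaaCAATCTActtcagttcag
EIF2C4, chr1:35854434-35854462: gtggtttgttaAATCTAAatgatttttaa

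Over all genes, the median in the second comparison was 0.02 for 8680 genes without a match of the second pair, -0.02 for 1725 with 1, -0.08 for 603 with 2 and -0.13 for 266 with 3 or more. Longer 3′ UTRs held more matches, with a median length of 1126 bases without a match and 5434 with 3 or more. Among 3′ UTRs of at least 2000 bases the medians were 0.05 without a match and -0.11 with 3 or more. Length still differed among these, with a median of 3080 bases without a match and 5634 with 3 or more. Low values were the reason for choosing this pair, so a fall of the medians with more matches was built in. Restricting the 3′ UTR length does not remove that choice, and the medians of the longer 3′ UTRs are no check on it. EIF2C1, EIF2C2 and TNRC6A, at -0.44, -0.44 and -0.55, lay near or below the lower quartile of -0.44 of genes with 3 or more. For the first pair, the medians in the first comparison were 0.05 without a match, -0.07 with 1, -0.10 with 2 and -0.16 with 3 or more. Among the members with a match, EIF2C1 and EIF2C3 lay above the upper quartile for their number of matches. EIF2C4 and TNRC6A lay below the lower quartile, and EIF2C2 and TNRC6B lay between the quartiles. The quartiles of both pairs carry the same choice, so the places of the members among them are description only. The part of the matches in the values of either comparison was not tested.

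**Figure D4:**
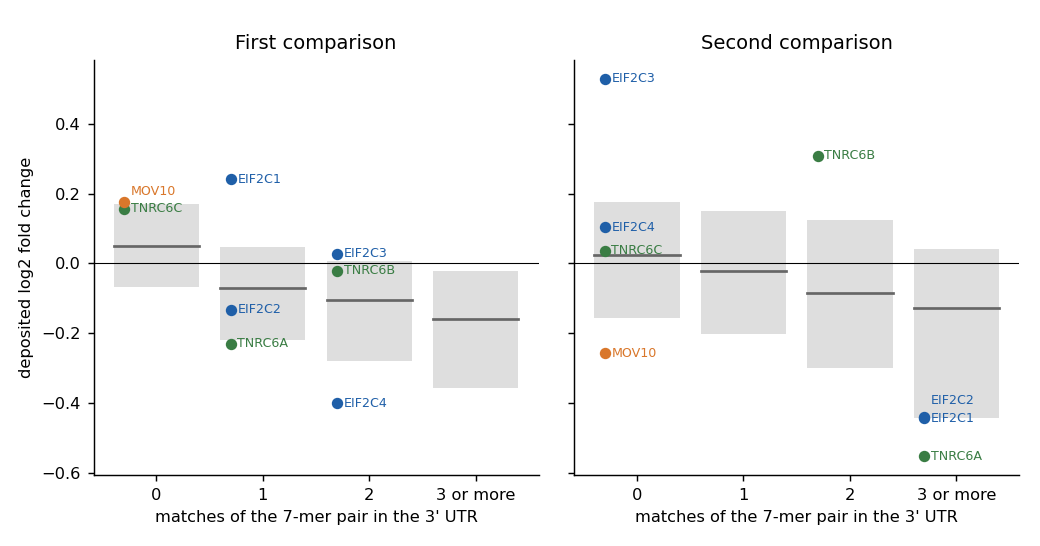
Deposited log2 fold change (y axis) against the number of matches of the 7-mer pair picked in that comparison (x axis). Each pair was picked because its carriers were lowest in these same values, so lower boxes with more matches follow from that choice. Grey boxes span the quartiles of all genes with a matched 3′ UTR, grey lines are medians, and points are Argonaute (blue), GW182 (green) and MOV10 (orange) genes. In the second comparison EIF2C1, EIF2C2 and TNRC6A share the bin of 3 or more matches, and EIF2C3 has none.

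Other genes that load, modify or act after the silencing complex were described by 7 lists with 107 measured genes. None of the 107 reached 2-fold in any comparison. At 1.5-fold the first comparison had 1 and the second 4, all lower, and the difference had 3, all higher, beside the backgrounds of 2.17%, 5.07% and 9.13% given above. The 107 genes had medians of 0.02 and 0.03.

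The 13 genes of chaperones that open Argonaute for loading of the small RNA ranged in the first comparison from -0.18 for HSPA4 to 0.21 for the HSP40 protein DNAJB1 (authors' deposited table). For the second comparison the authors' deposited table gave HSPA4 0.33 and the HSP90 co-chaperone FKBP4 -0.30, and the median was 0.09. In the difference FKBP5, another HSP90 co-chaperone, stood highest at 0.35 and HSPA4 lowest at -0.52.

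RNA-binding proteins and helicases found with Argonaute held the widest range. Of 32 genes, IPO8, an importin that binds Argonaute proteins, was lowest in the first comparison at -0.62 (authors' deposited table), and the mRNA-binding protein IGF2BP1 was highest at 0.39. For the second, CAPRIN1, a component of stress granules, was lowest at -0.98 and FXR1, a relative of the fragile X protein, was highest at 0.45 (authors' deposited table). CAPRIN1 also had the highest difference, 0.83, and FXR1 the lowest, -0.46. The medians were 0.06 and 0.02.

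The list for turnover and modification of Argonaute, which also holds enzymes that tail or trim RNA, had medians of -0.09 and -0.03 over 13 measured genes. In the first comparison the kinase CSNK1A1, which phosphorylates Argonaute, was highest at 0.21 and P4HA1, a prolyl hydroxylase subunit, lowest at -0.38 (authors' deposited table). For the second, ANKRD52, a subunit of the phosphatase that reverses that phosphorylation, was highest at 0.35 and the kinase MAPKAPK2 lowest at -0.13 (authors' deposited table). ANKRD52 had the lowest difference of the list, -0.58, and CSNK1A1 the highest, 0.27. The LIM-domain adaptors AJUBA, LIMD1 and WTIP, which join Argonaute and GW182 proteins, had medians of 0.04 and -0.06. AJUBA was at 0.35 and 0.15 and WTIP at -0.18 and -0.31 (authors' deposited table), and LIMD1 had the lowest difference at 0.11.

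GW182 proteins contact poly(A) binding proteins and deadenylases. Among 5 measured poly(A) binding proteins and their partners, the nuclear PABPN1 was at 0.33 and -0.18 (authors' deposited table), the highest in the first comparison and the lowest in the second. The cytoplasmic PABPC1 was highest in the second at 0.24, and the PABPC1 partner PAIP1 lowest in the first at -0.13 (authors' deposited table). The list of PAN2-PAN3 and CCR4-NOT deadenylases had 17 measured genes, BTG and TOB proteins among them. Of these, 14 were above 0 in the second comparison (82.4%, median 0.08) and 10 in the first (58.8%, median 0.05). Over all genes, 51.1% were above 0 in the second and 56.5% in the first, so the share in the first was near the background. BTG2, which binds the deadenylases, was highest in both at 0.31 and 0.36, and the catalytic subunit CNOT7 lowest in both at -0.16 and -0.09 (authors' deposited table). In the difference CNOT10 was highest at 0.06 and C2orf29, the older symbol of CNOT11, lowest at -0.32.

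Decapping, decay and translational repression come last in the pathway. In this list 3 of 24 genes (12.5%) lay beyond 1.5-fold in the second comparison, beside 5.07% of all genes and 3.74% of the 107 pathway genes. The list was singled out for this after the values were seen. The 107 genes include these 24, and 3 of their 4 genes beyond 1.5-fold in the second comparison come from this list. DCP2, the decapping enzyme, was lowest at -0.75 (authors' deposited table). LSM14B, a P-body protein, was at -0.67 and DCP1A, the activator of DCP2, at -0.63 (authors' deposited table), and both were singled out after their values were seen. LSM1, of the ring that binds decay intermediates, was highest in the second comparison at 0.37, and its partner LSM7 was highest in the first at 0.40 (authors' deposited table). The cap-binding factor EIF4E was lowest in the first at -0.28 (authors' deposited table). The medians over 24 genes were 0.01 and -0.07, and LSM14B had the highest difference at 0.86 and LSM1 the lowest at -0.33.

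**Figure D5:**
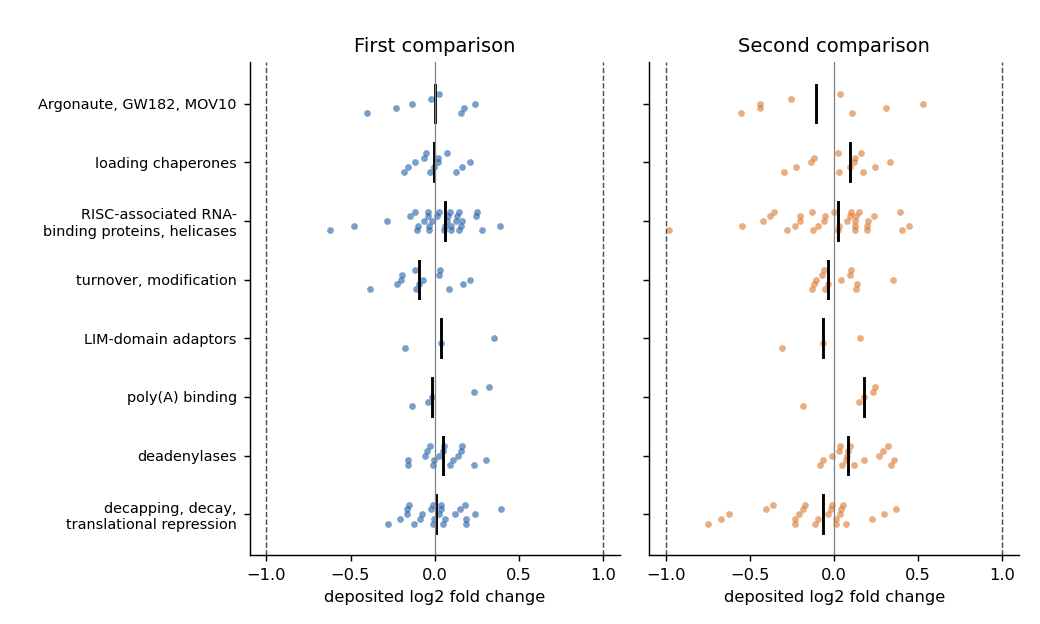
Deposited log2 fold changes (x axis) in the first (left) and second (right) comparison for the 8 genes and for 7 lists of pathway genes (rows). Points are genes, black bars are medians, and dashed lines mark 2-fold. No point lies beyond the dashed lines. CAPRIN1, at -0.98 in the second comparison, comes closest.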

How the data were processed

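Poly(A) RNA of 3 HEK293 libraries, 1 per group, is covered by 1 deposited table without a header line. The authors deposited 3 columns of levels and 2 columns of log2 fold changes. The 3 columns of levels could be tied to no sample by name and served only to check how the fold changes were made. Each fold change was the log2 of 2 levels, both raised by 1, over a denominator column common to both (largest deviation 5e-12). Per the submitters' processing notes, the tools were TopHat2 2.06, Cuffdiff 2.1.1, Cufflinks, CASAVA 1.8.2 and SAMtools, and the build hg19, with no role given.

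Values were read with Python 3.11.15 and pandas 2.3.3, counted past 2-fold, and set beside all 12040 genes. Depth is unknown, and no test was possible. Coordinates and 3′ UTRs came from GENCODE release 29 (GRCh38, a later build than the table's), where 11274 symbols, older ones matched through RefSeq synonyms, matched a gene whose 3′ UTR reached 50 bases. Threshold counts and the site search were tested on simulated data.

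The members and lists were chosen with earlier results of these data known. Named were the 8 genes, DICER1, DROSHA, the highest and lowest gene of each list, and the 2 genes nearest to the members with the highest and lowest difference. Others are marked. Alternatives were the fold threshold, re-centring, the mean, and omission of MOV10.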

Additional observations from a re-analysis of the deposited data

How the results depend on the processing

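No paired analysis was possible because each group has 1 library and no value comes from a test. The floor on low levels and the added 1 were not varied, because the unnamed columns of levels were used for no result. Re-centring on the median of all genes (0.03 in the first comparison, 0.01 in the second) moved no member's value by more than 0.03, changed no count past 2-fold among the 8 genes or the pathway lists, and changed the members' medians by less than 0.1. It turned the sign of 1 member, EIF2C3 in the first comparison, to -0.0032, so that 3 of the 8 genes were above 0 there and 5 below. At 1.5-fold the count among the 8 genes stayed 0 in both comparisons and became 1 in the difference. At 1.3-fold, chosen after the data were seen, it was 1, 4 and 4 in the first, the second and the difference. For the pathway lists the counts were 0 at 2-fold in all of these. They became 1, 4 and 3 of 107 genes at 1.5-fold, beside 2.17%, 5.07% and 9.13% of all genes. At 1.3-fold they were 5, 11 and 13 of 107, beside 8.11%, 16.3% and 23.5% of all genes. Without MOV10 the members' median in the second comparison was 0.0362 in place of -0.11. The mean in place of the median gave 0.0665 in place of 0.21 in the difference. The members' median in the first comparison, 0.0028, turned sign under each of these: -0.0231 for the mean, -0.0215 without MOV10 and -0.0276 re-centred. In the second it turned sign without MOV10 only. The unknown depth limits what the low fold changes can show.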
